A study of Mus musculus with 209 samples.

Results

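Tnfaip3, which encodes the ubiquitin-editing enzyme A20, and 5 genes that act with or beside it (Tnip1, Tnip2, Tnip3, Cyld and Tax1bp1) were followed in sorted immune cells of mice injected with IL1b, IL6 or TNFa. The genes were chosen by symbol, and all 6 were found among the 55011 genes of the count table. The table holds 209 libraries, of which 20 come from a TNFa time course, 6 from an LPS experiment and the rest from a screen of 14 cell types.

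Signals from the TNF and IL1 receptors pass through ubiquitin chains that gather the kinases which activate NF-kB. A20 removes such chains and adds others, and its gene is a textbook NF-kB target, so that the pathway raises its own brake. The Tnip proteins (ABIN1, ABIN2 and ABIN3) bind ubiquitin and A20, CYLD is a deubiquitinase that trims signalling chains independently of A20, and TAX1BP1 is an adaptor that brings A20 to its substrates and also serves as a receptor for selective autophagy. Mice and people with too little A20 develop inflammatory disease.

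All mice were C57BL/6 and 5 to 8 weeks old, and each received an intravenous injection in 120 µL. The screen groups had 5 µg of TNFa, IL1b or IL6 in PBS, or PBS alone, and cells were sorted 2 h later. Each library came from about 1000 cells that had been sorted 2 times. The cell types are named here by their label codes. The peritoneal cavity gave MFpc (macrophages) and MC (mast cells). The myeloid cells of the spleen were MFrp (red pulp macrophages), Mo.6C+ (Ly6C+ monocytes), GN (neutrophils), DC.8+ (dendritic cells with CD8) and pDC (plasmacytoid dendritic cells). Its lymphoid cells were NK (natural killer) cells, the T cells Tgd (gamma-delta), Treg (regulatory), T.4 (CD4) and T.8 (CD8), and the B cells B.fo (follicular) and MZB (marginal zone). Cytokine groups held 3 libraries, or 2 for IL1b in MC and DC.8+, for IL6 in B.fo, MC and NK and for TNFa in T.8. The PBS groups held 4 or 5 libraries, and pDC had no IL1b group. In the time course, monocytes and peritoneal macrophages were taken 2, 4, 8 and 24 h after TNFa or 24 h after PBS, with 2 libraries a group. In the LPS experiment, 3 monocyte libraries followed 1 ng of LPS and 3 were controls, and the labels give no time.

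Library totals ran from 1094567 to 9291121 counts. Markers of the labelled cell type were higher in its own libraries than in those of any other type for 13 of the 14 types. The exception was T.4, whose marker level was reached by 6 Treg libraries, and only 3 of the 5 Tgd markers were in the table. In some libraries markers of another cell type stood out, and where leaving these out ended a call, they are named beside it. Whole cell types also carried such markers, given as means on the log2(CPM + 1) scale. MFrp libraries had erythroid markers at 6.82 to 12.6 and NK markers at 3.08 to 7.32. Follicular B cell markers were at 4.99 to 6.88 in pDC, and DC.8+ markers at 2.4 to 6.73 in T.8. DC.8+ libraries had pDC markers at 6.94 to 8.83 and red pulp macrophage markers at 6.23 to 8.24. The latter were at 7.56 to 8.24 with TNFa and 6.25 to 7.69 with PBS. The part of these markers of DC.8+, pDC and T.8 in the responses was not tested. No label tells whether each library is a different mouse, and the p-values therefore reflect library-to-library spread, which may be technical. In these bulk samples, fewer cells that express a gene and less RNA per cell cannot be told apart.

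Below, a level is in CPM, read counts scaled to library size with TMM factors, averaged with its SD. A response is a log2 fold change against PBS from edgeR's quasi-likelihood fit of that cell type, with its standard error (SE). "Raised", "rose", "lowered" and "fell" mean an adjusted p under 0.05, with Benjamini-Hochberg adjustment over all genes of the fit.

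The promoters of 4 members are shown because NF-kB acts on its targets through a short motif, and these windows hold it. The windows run from 250 bases before to 50 bases after the RefSeq transcription start (RefSeq, GRCm38.p6) and are written along the gene's strand, and capitals mark matches to the kappaB consensus, the motif that NF-kB dimers bind. Tnfaip3, chr10:19015361-19015660, minus strand, held matches at -125 and -12 from the start. Tnip1, chr11:54962891-54963190, minus strand, held overlapping matches at -58, -57 and -56. Tnip3, chr6:65590148-65590447, plus strand, held 1 at -54. Cyld, chr8:88696778-88697077, plus strand, held 1 at -155.
Tnfaip3: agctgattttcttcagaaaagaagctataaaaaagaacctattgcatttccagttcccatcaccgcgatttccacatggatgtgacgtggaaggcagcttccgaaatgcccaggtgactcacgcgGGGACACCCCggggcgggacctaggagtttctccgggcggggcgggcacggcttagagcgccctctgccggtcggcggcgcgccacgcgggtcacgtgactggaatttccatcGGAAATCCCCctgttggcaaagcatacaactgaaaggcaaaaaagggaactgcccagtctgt
Tnip1: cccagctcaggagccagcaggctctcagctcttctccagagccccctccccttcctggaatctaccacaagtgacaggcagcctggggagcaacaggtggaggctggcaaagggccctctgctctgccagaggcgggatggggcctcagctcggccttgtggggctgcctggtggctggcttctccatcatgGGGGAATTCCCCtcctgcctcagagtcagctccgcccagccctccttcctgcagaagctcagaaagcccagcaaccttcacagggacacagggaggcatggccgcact
Tnip3: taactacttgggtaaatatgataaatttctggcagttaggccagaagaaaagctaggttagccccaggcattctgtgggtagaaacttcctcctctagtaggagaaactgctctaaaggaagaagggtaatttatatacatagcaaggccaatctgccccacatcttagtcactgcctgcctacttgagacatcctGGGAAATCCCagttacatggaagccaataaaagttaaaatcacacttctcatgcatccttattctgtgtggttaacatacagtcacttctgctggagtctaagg
Cyld: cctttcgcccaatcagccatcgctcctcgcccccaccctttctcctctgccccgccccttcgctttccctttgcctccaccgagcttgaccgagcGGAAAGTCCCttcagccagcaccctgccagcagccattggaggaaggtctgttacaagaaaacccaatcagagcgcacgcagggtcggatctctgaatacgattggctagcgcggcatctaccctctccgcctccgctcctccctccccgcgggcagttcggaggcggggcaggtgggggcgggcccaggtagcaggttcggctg

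Both strands were searched, and 8.46% of 32851 mouse promoters of this length held at least 1 match. The Tnip2 window held no kappaB match, nor did that of the second Tnfaip3 start or the first Tax1bp1 start, while the second Tax1bp1 start had a match at 35. These are matches of letters only, and no binding was measured. The window printed for Tnip3 lies inside the GENCODE span of the gene, chr6:65525313-65634040. Genes on the opposite strand overlap Tnip1, Cyld and Tax1bp1, and without a stated strand setting their reads cannot be told apart.

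With PBS alone, the level of all 6 genes differed between the 14 cell types (adjusted p at most 1.24e-09, edgeR, n = 66 libraries), as it did for 92.9% of all genes tested. Peritoneal macrophages had the least Tnfaip3, with 13.7, 12.9, 22.8, 16.2 and 17 CPM. That was below every library of the next type in the order, MZB, which averaged 46.5 ± 11.8 CPM (SD, n = 4). DC.8+ averaged the most Tnfaip3, at 122 ± 36.2 CPM (n = 4), followed by pDC at 115 ± 34.8 CPM (n = 5), and all neighbours in the order from DC.8+ down to MZB overlapped.

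Tnip1 was likewise lowest in peritoneal macrophages, at 26.3 ± 4.70 CPM, apart from the next type, MFrp, at 59.3 ± 13.7 CPM (n = 5 each). Its highest means were in Treg, at 144 ± 17.3 CPM, and neutrophils, at 128 ± 19.7 CPM, whose libraries overlapped. Tnip2, whose protein holds the kinase TPL2 together with the NF-kB precursor p105, had another order. It ran down without a gap from neutrophils, at 135 ± 25 CPM, to NK cells, at 24.8 ± 4.40 CPM.

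Tnip3 was scarce in nearly all cell types with PBS. It averaged 19.4 ± 9.09 CPM in monocytes and at most 4.53 ± 4.62 CPM elsewhere, and no mast cell library of any group had a read. Cyld lay between 132 ± 21.2 CPM in T.4 and 46.2 ± 2.82 CPM in MFpc, with each type overlapping its neighbour. Tax1bp1 set 2 types apart: mast cells averaged 828 ± 81.4 CPM (n = 4) and neutrophils 800.1 ± 83.3 CPM (n = 5), while NK cells, next in order, averaged 397 ± 76.0 CPM. Per kb of exon, the mean level with PBS was highest for Tax1bp1 in 8 of the 14 types, for Tnip1 in 3 and for Tnip2 in 3, and lowest for Tnip3 in all 14.

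**Figure D1:**
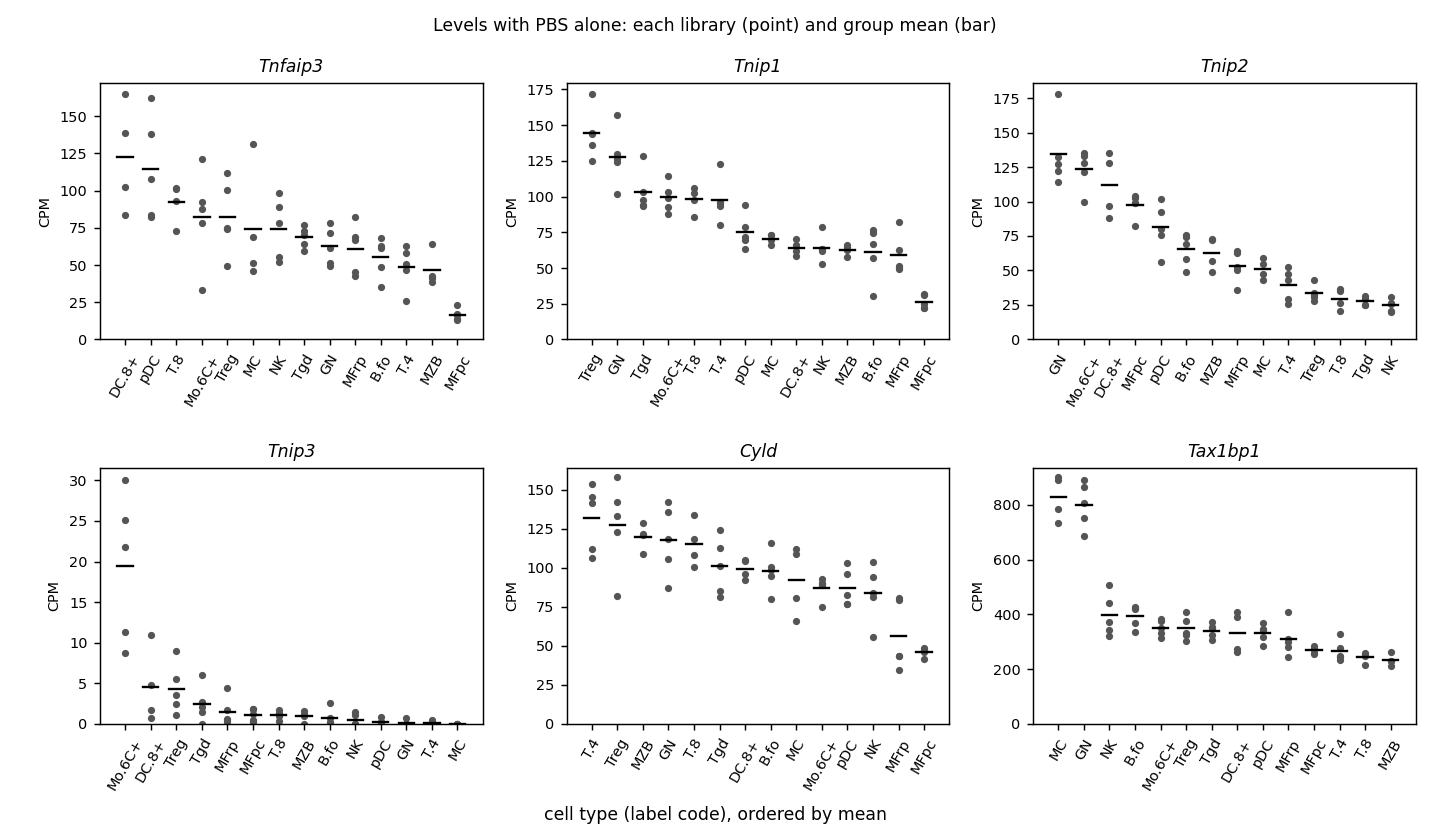
Level of each gene with PBS alone in CPM (y axis, linear) in 14 cell types (x axis, by label code, ordered by mean); points are libraries and bars are group means. Peritoneal macrophages (MFpc) are lowest for Tnfaip3 and Tnip1, and mast cells (MC) and neutrophils (GN) stand above the other types for Tax1bp1.

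The 3 cytokines gave unlike counts over the 6 genes. TNFa raised a member in 37 of 79 tests of a member in a cell type (46.8%) and lowered one in 4 (5.06%), whereas of all gene tests 8.26% were raised and 7.95% lowered. The median response of the members to TNFa was 0.76 on the log2 scale, against -0.03 over all genes. IL1b raised a member in 27 of 74 tests (36.5%) and lowered one in 1 (1.35%), beside 5.76% and 4.26% of all gene tests. IL6 raised a member in 5 of 79 tests (6.33%) and lowered one in 4 (5.06%), beside 1.46% and 0.95% of all gene tests. The tests of a cytokine share genes and cell types, and the cytokines share their PBS libraries. Tnip3 had enough counts to be tested in 9 cell types. In MFpc, NK and B.fo its PBS and IL6 libraries had at most 9 reads. In T.8 its PBS libraries had at most 7 reads and its IL6 libraries 17, 3 and 8. In these types it passed the low-count filter only with libraries of the IL1b and TNFa groups. Its number of tests therefore depended in part on its response. With TNFa the median over all genes was -0.21 in neutrophils and -0.14 in MFrp, so the typical gene there lay that far below 0.

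**Figure D2:**
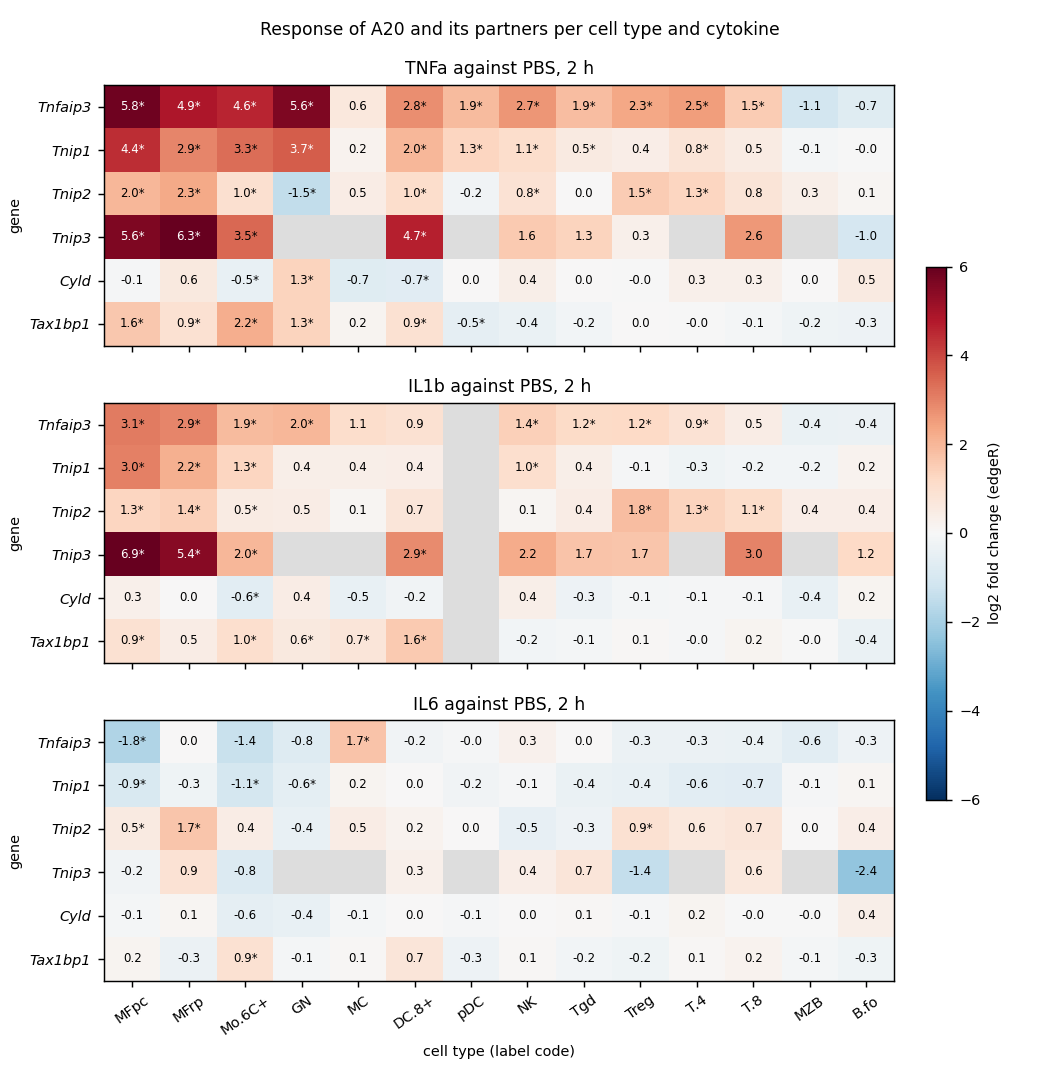
Log2 fold change against PBS (edgeR, colour and printed value) of the 6 genes (rows) in 14 cell types (columns, label codes) 2 h after TNFa, IL1b or IL6; a star marks an adjusted p under 0.05 and grey cells were not tested. The TNFa panel has starred increases of Tnfaip3 in 11 of 14 types, and the IL6 panel has 9 starred cells in all.

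Where many genes changed, a member's call says little by itself. In peritoneal macrophages 5 of the 6 members were called with TNFa, beside 53.4% of all genes, 5 with IL1b beside 37.3%, and 3 with IL6 beside 15.3%. In monocytes all 6 were called with TNFa beside 48.7%, all 6 with IL1b beside 37%, and 2 with IL6 beside 5.87%. In neutrophils all 5 members tested were called with TNFa beside 37.5%, 2 with IL1b beside 22.4%, and 1 with IL6 beside 9.51%. In MFrp, 5 of 6 were called with TNFa beside 21.6%, 4 with IL1b beside 10.9%, and 1 with IL6 beside 0.387%. In DC.8+ all 6 were called with TNFa beside 15.5%, and 2 with IL1b beside 4.82%, where DESeq2 called 4. With IL6 none was called in DC.8+ by edgeR or DESeq2 and 1 had an unadjusted p under 0.05, beside 0.107% of all genes.

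In NK cells 3 of 6 members were called with TNFa beside 15.6% of all genes, 2 with IL1b beside 3.39%, and 0 with IL6 beside 0% by edgeR; there DESeq2 also called no member, no member had an unadjusted p under 0.05, and 980 of 13524 genes did. In Treg 2 were called with TNFa beside 5.1%, 2 with IL1b beside 3.28%, and 1 with IL6 beside 0.494%. In T.4, 3 of 5 were called with TNFa beside 6.56% and 2 with IL1b beside 5.96%. IL6 gave no edgeR call in T.4 beside 2.8%, while DESeq2 called 2, and 2 had an unadjusted p under 0.05. In T.8, 1 of 6 was called with TNFa beside 0.481% and 1 with IL1b beside 0.581%. In Tgd, 2 were called with TNFa beside 3.42% and 1 with IL1b beside 2.14%. With IL6 no member was called by edgeR in T.8, beside 0.151%, or in Tgd, beside 0.0147%; in T.8 DESeq2 called 1 and 2 had an unadjusted p under 0.05, and in Tgd DESeq2 called 0 and 1 had an unadjusted p under 0.05.

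In pDC, 3 of 5 members were called with TNFa beside 14.4% of all genes, and with IL6 none was by edgeR or DESeq2, beside 0.154%, with 1 at an unadjusted p under 0.05. In mast cells 1 of 5 was called with IL1b beside 2.19% and 1 with IL6 beside 0.425%. With TNFa none was called there by edgeR or DESeq2, beside 3.99%, and 1 had an unadjusted p under 0.05. B cells had no member called by edgeR with any cytokine. The shares of all genes were 2.74% with TNFa, 3.96% with IL1b and 0.218% with IL6 in MZB, and 3.51%, 1.09% and 0.394% in B.fo. DESeq2 called 1 member with IL1b in each of them and 0 with TNFa or IL6. At an unadjusted p under 0.05, MZB had 1 member with TNFa, 1 with IL1b and 0 with IL6, and B.fo had 3 with TNFa, 2 with IL1b and 1 with IL6.

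Tnfaip3 (A20) was the member that TNFa raised in the most cell types. It was raised in 11 of 14 cell types, and in each of the 11 the lowest TNFa library lay above the highest PBS library. The share of all genes whose groups do not overlap was not counted. In peritoneal macrophages the TNFa libraries had 542, 928 and 1181 CPM, against 13.7, 12.9, 22.8, 16.2 and 17 CPM with PBS. This was a 57.1-fold increase (log2 5.84 ± 0.27 SE, adjusted p = 3.71e-13).

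In neutrophils Tnfaip3 had 2717, 2585 and 2682 CPM with TNFa, against 71.7, 61.7, 49.2, 78.4 and 51.6 CPM with PBS (log2 5.58 ± 0.44 SE, adjusted p = 2.78e-08, edgeR). MFrp had 1455, 2006 and 1788 CPM with TNFa, against 42.7, 45.2, 66.6, 68.9 and 82.2 CPM with PBS (4.85 ± 0.26, adjusted p = 2.84e-09). Monocytes had 2077, 2078 and 1550 CPM with TNFa, against 33.3, 78.6, 87.3, 92.2 and 121 CPM with PBS (4.58 ± 0.43, adjusted p = 2.54e-07). In these myeloid cells no TNFa library came near the PBS range. In the screen, peritoneal macrophages, which started lowest, remained below the other 3 in level.

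The dendritic and lymphoid cells had smaller increases of Tnfaip3 with TNFa. The log2 responses were 2.80 ± 0.24 SE in DC.8+, 2.65 ± 0.18 in NK, 2.49 ± 0.22 in T.4, 2.30 ± 0.21 in Treg, 1.90 ± 0.19 in pDC, 1.86 ± 0.24 in Tgd and 1.52 ± 0.24 in T.8. The T.8 group had 220 and 302 CPM with TNFa, against 102, 73.0, 92.7 and 101 CPM with PBS, and its call (adjusted p = 0.00939) was lost without the library at 302 CPM. That library had DC.8+ markers at 5.63 and the other at 2.4, against 4.98 to 6.73 with PBS (mean log2(CPM + 1)).

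The 3 cell types in which Tnfaip3 was not called with TNFa were mast cells and both B cells. The log2 values were 0.65 ± 0.36 SE in MC (adjusted p = 0.424), -0.72 ± 0.28 in B.fo (adjusted p = 0.184) and -1.09 ± 0.36 in MZB (adjusted p = 0.124, edgeR). MZB had 9.24, 26.8 and 30.0 CPM with TNFa, against 42.7, 41, 63.9 and 38.3 CPM with PBS, so the groups did not overlap although the test was not passed. With no filter on low counts, Tnfaip3 passed in MZB (-1.08, adjusted p = 0.000419) and in MC (0.66, adjusted p = 0.0259). These were also the types with the least Tnfrsf1a, the TNF receptor with a death domain, when given PBS. It averaged 0.0583 ± 0.117 CPM in MZB (n = 4) and 0.242 ± 0.441 CPM in B.fo (n = 5), no read was counted in MC (n = 4), and the other 11 types averaged 24.4 CPM or more. The part of receptor level in the response was not tested.

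With IL1b, Tnfaip3 was raised in 8 of 13 cell types. Peritoneal macrophages had 180, 119 and 108 CPM with IL1b (log2 3.12 ± 0.26 SE, adjusted p = 7.47e-09), and MFrp had 510, 305 and 556 CPM (2.93 ± 0.24, adjusted p = 8.37e-07); both lay above all of their PBS libraries. Neutrophils had 387, 76.0 and 321 CPM with IL1b, and the lowest of these fell within the PBS range (1.98 ± 0.41, adjusted p = 0.00176). In NK cells the response was 1.42 ± 0.18, and 1.26 (adjusted p = 0.000738) without an IL1b library with follicular B cell markers at a mean of 3.68 on the log2(CPM + 1) scale, against 0.2 to 0.701 in the PBS libraries. In Treg it was 1.18 ± 0.21, while T.4 rose by 0.85 ± 0.23 (adjusted p = 0.0261) and lost the call when 1 of 3 libraries was left out (smallest value 0.70). Neither type passed in 1 fit of all screen libraries (edgeR adjusted p = 0.0785 in Treg and 0.358 in T.4).

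In DC.8+, Tnfaip3 had 286 and 169 CPM with IL1b, against 83.9, 102, 139 and 165 CPM with PBS. The groups did not overlap, and the edgeR test was not passed (0.92 ± 0.26 SE, adjusted p = 0.0639), while DESeq2 called it (adjusted p = 0.0249), as did edgeR with no filter on low counts (adjusted p = 0.00265). In mast cells Tnfaip3 had 166 and 145 CPM with IL1b, against 69.0, 46.0, 51.5 and 132 CPM with PBS, also without overlap. The main edgeR test was not passed there, but edgeR with no filter on low counts called it (1.07, adjusted p = 4.94e-05).

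Monocytes given IL1b were uneven, with 597, 178 and 122 CPM of Tnfaip3. The response of 1.90 ± 0.40 SE (adjusted p = 0.00153, edgeR) became 0.88 (adjusted p = 0.0332) without the highest library. In Tgd, the IL1b libraries had 230, 163 and 64.6 CPM of Tnfaip3, against 77.1, 64.2, 72.7, 59.8 and 70.3 CPM with PBS (1.17 ± 0.24, adjusted p = 0.0112). The library at 230 CPM carried B cell markers, with a mean of 3.97 on the log2(CPM + 1) scale, against 0.326 to 1.29 in the PBS libraries. Without it the response was 0.74 (adjusted p = 0.121), and the call was also lost without the library at 163 CPM.

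IL6 called Tnfaip3 in 2 of 14 cell types, in opposite directions. It was lowered in peritoneal macrophages, with 5.64, 1.52 and 6.92 CPM, all below every PBS library (log2 -1.81 ± 0.37 SE, adjusted p = 0.00199, edgeR). In mast cells it was raised by 1.73 ± 0.38 (adjusted p = 0.0358), with 77.2 and 418 CPM with IL6, against 69.0, 46.0, 51.5 and 132 CPM with PBS. The groups overlapped, and the library at 418 CPM carried CD4 T cell markers at a mean of 2.26 on the log2(CPM + 1) scale, against 0 to 0.687 in the other mast cell libraries. Without that library the value was 0.08 (adjusted p = 0.997). In monocytes Tnfaip3 had 26.2, 36.9 and 32.1 CPM with IL6, within the PBS range at the highest (-1.35 ± 0.45, adjusted p = 0.0918). It passed there with no filter on low counts (-1.36, adjusted p = 1.35e-13) and in 1 fit of all screen libraries (-1.38, adjusted p = 0.0227), and in neutrophils with no filter (-0.71, adjusted p = 0.00231).

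**Figure D3:**
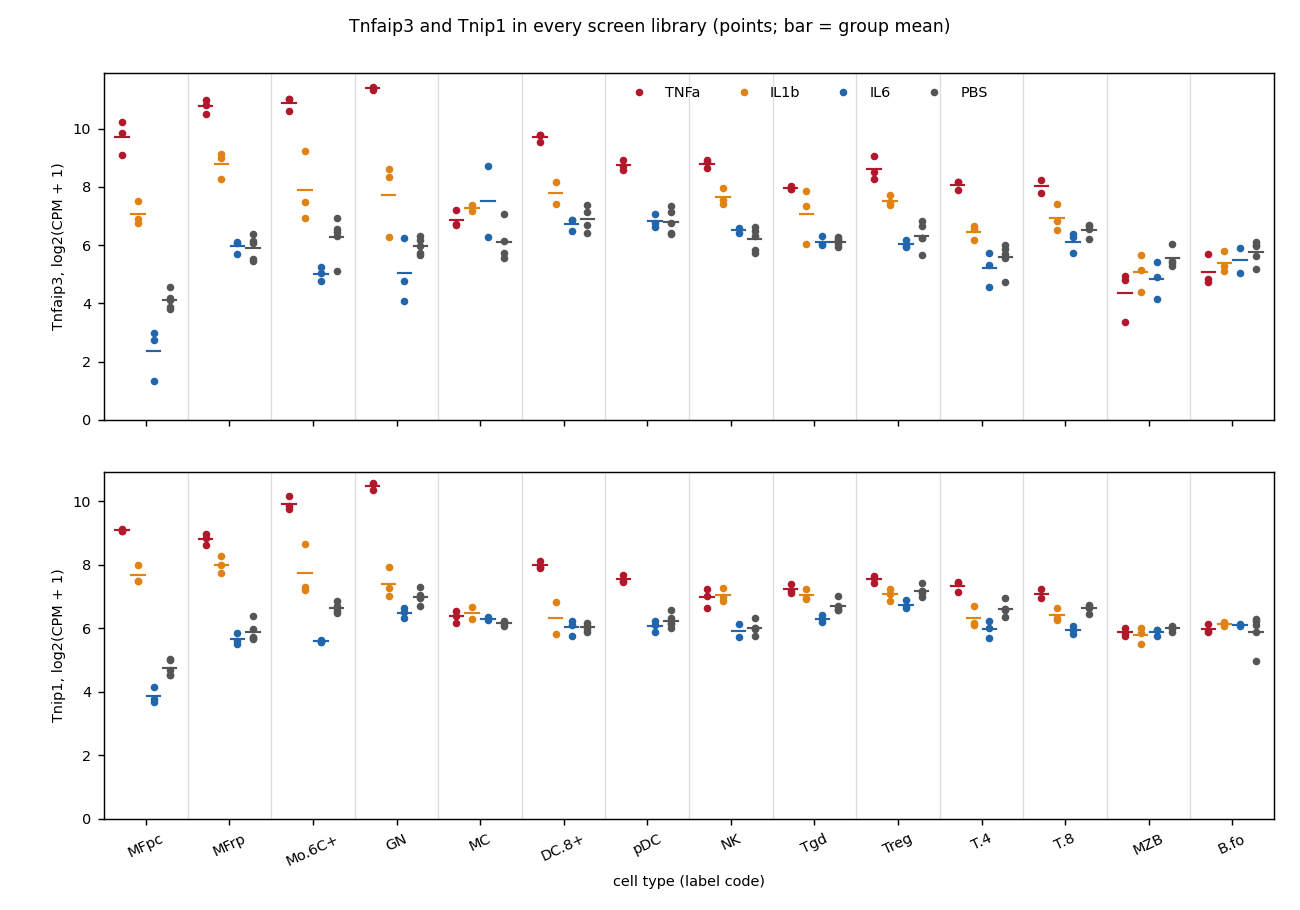
Level of Tnfaip3 (upper) and Tnip1 (lower) in every screen library as log2(CPM + 1) (y axis), by cell type (x axis, label codes) and treatment (colour: TNFa, IL1b, IL6, PBS); points are libraries and bars are group means. With TNFa, Tnfaip3 lies above all PBS libraries in 11 types and within or below their range in the B cells (MZB, B.fo).

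Tnip1 (ABIN1), the partner that links A20 to ubiquitin chains, was raised by TNFa in 9 of 14 cell types, all among the 11 of Tnfaip3 and each with a smaller log2 value. Peritoneal macrophages had 532, 527 and 558 CPM with TNFa, against 24.5, 22.2, 31.2, 31.5 and 22.3 CPM with PBS (log2 4.44 ± 0.15 SE, adjusted p = 2.14e-15). Neutrophils had 1490, 1295 and 1521 CPM with TNFa, against 124, 130, 126, 157 and 102 CPM with PBS (3.66 ± 0.18, adjusted p = 7.68e-11). No library of one group came near the other in either cell type.

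The remaining Tnip1 responses to TNFa were 3.34 ± 0.25 SE in monocytes, 2.93 ± 0.19 in MFrp, 2.00 ± 0.22 in DC.8+, 1.3 ± 0.14 in pDC, 1.05 ± 0.17 in NK, 0.76 ± 0.16 in T.4 and 0.55 ± 0.14 in Tgd. The Tgd call (adjusted p = 0.0299, edgeR) was lost when any of 6 libraries was left out. In Treg Tnip1 was at 187 ± 14.4 CPM with TNFa and 144 ± 17.3 CPM with PBS (SD, n = 3 and 5), which did not pass (0.40 ± 0.14, adjusted p = 0.114), although Tnfaip3 rose there.

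IL1b raised Tnip1 in 4 types, with log2 responses of 3.04 ± 0.14 SE in MFpc, 2.15 ± 0.19 in MFrp, 1.28 ± 0.25 in monocytes and 1.02 ± 0.17 in NK cells. The monocyte value was 0.63 (adjusted p = 0.00177) without the library that also had the most Tnfaip3. IL6 lowered Tnip1 in MFpc, to 16.9, 11.9 and 12.8 CPM (-0.89 ± 0.17, adjusted p = 0.00108), below all 5 PBS libraries. In monocytes given IL6 it had 46.4, 49.0 and 46.0 CPM, against 88.2, 99.3, 103, 92.5 and 115 CPM with PBS (-1.05 ± 0.27, adjusted p = 0.0288), and in neutrophils it changed by -0.61 ± 0.18 (adjusted p = 0.0478). Neither of the last 2 groups overlapped PBS, but the monocyte call was lost in 6 of 14 and the neutrophil call in 10 of 14 fits that left out 1 library. Over the 14 cell types, the IL6 libraries lay wholly below PBS for Tnip1 in 7 and wholly above it in 1, which was not counted over all genes. Outside the 3 edgeR calls, DESeq2 called Tnip1 lowered by IL6 in T.4 (-0.62, adjusted p = 0.0139) and T.8 (-0.67, adjusted p = 0.00868).

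Tnip2 (ABIN2) rose less and did not follow A20 in every cell type. With TNFa it was raised in 7 types, by 2.28 ± 0.21 SE in MFrp, 2.00 ± 0.11 in MFpc, 1.54 ± 0.16 in Treg, 1.27 ± 0.18 in T.4, 1.05 ± 0.19 in DC.8+, 0.95 ± 0.14 in monocytes and 0.85 ± 0.24 in NK (log2). The NK call of Tnip2 was lost without 1 TNFa library (adjusted p = 0.0914) and with no filter on low counts (adjusted p = 0.0661). Neutrophils went the other way, with 36.2, 34.1 and 60.8 CPM with TNFa, against 114, 132, 127, 122 and 178 CPM with PBS. The groups did not overlap (-1.46 ± 0.26, adjusted p = 0.000245, edgeR), in the same libraries in which Tnfaip3 and Tnip1 rose.

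IL1b raised Tnip2 in 6 types, most in Treg, with 110, 121 and 128 CPM with IL1b, against 33.4, 32.6, 43.2, 27.8 and 30.9 CPM with PBS (log2 1.85 ± 0.16 SE, adjusted p = 2.67e-07). The other responses were 1.41 ± 0.21 in MFrp, 1.35 ± 0.18 in T.4, 1.31 ± 0.11 in MFpc, 1.1 ± 0.21 in T.8 and 0.51 ± 0.14 in monocytes. The T.8 call was lost in 5 of 12 fits that left out 1 library (adjusted p up to 0.173), and the monocyte call was lost without the IL1b library that was highest for Tnfaip3 (0.33, adjusted p = 0.074). The monocyte call was also lost in 1 fit of all screen libraries (0.48, adjusted p = 0.0901, edgeR).

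Tnip2 was also the one member that IL6 raised in several types. MFrp had 147, 208 and 151 CPM with IL6, against 50.3, 36.0, 64.1, 62.5 and 52.6 CPM with PBS (log2 1.67 ± 0.21 SE, adjusted p = 0.000785). The first 3 of these PBS libraries were rich in haemoglobin transcripts, and without them and 2 MFrp libraries with neutrophil markers the value was 1.54 (adjusted p = 0.065). IL6 raised Tnip2 in Treg by 0.90 ± 0.16 (adjusted p = 0.0121), a call lost without either of 2 IL6 libraries, and in MFpc by 0.53 ± 0.11 (adjusted p = 0.00255). In 1 fit of all screen libraries neither passed (edgeR). The value there was 0.87 in Treg (adjusted p = 0.0506) and 0.49 in MFpc (adjusted p = 0.369).

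Tnip3 (ABIN3) was scarce with PBS except in monocytes. TNFa and IL1b raised it in the same 4 types, MFpc, MFrp, monocytes and DC.8+, of 9 tested. The IL1b calls in monocytes and DC.8+ did not hold without 1 library. MFpc was among the 9 only through its groups given TNFa and IL1b. Peritoneal macrophages given IL1b had 170, 103 and 119 CPM, against 1.84, 1.85, 0.431, 1.19 and 0.200 CPM with PBS (log2 6.93 ± 0.33 SE, adjusted p = 1.59e-12). With TNFa they had 62.9, 31.3 and 61.9 CPM (5.61 ± 0.34, adjusted p = 2.5e-11). All of these cytokine libraries lay above all PBS libraries.

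MFrp had 119, 111 and 138 CPM of Tnip3 with TNFa and 96.2, 40.6 and 57.8 CPM with IL1b, against 0.653, 1.66, 4.41, 0 and 0.292 CPM with PBS. The responses were 6.34 ± 0.68 SE to TNFa and 5.44 ± 0.67 to IL1b. DC.8+ rose by 4.67 ± 0.61 with TNFa and by 2.85 ± 0.63 with IL1b (adjusted p = 0.0152, edgeR), and the second call was lost without either IL1b library. Of these IL1b libraries, 1 had erythroid markers at a mean of 6.5 on the log2(CPM + 1) scale and the other at 1.01, against 2.01 to 5.13 with PBS. Without the first and the PBS library at 5.13, the Tnip3 response to IL1b was 2.75 (adjusted p = 0.128). Monocytes rose by 3.47 ± 0.62 with TNFa, with 236, 222 and 161 CPM.

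In monocytes given IL1b, Tnip3 had 189, 16.2 and 21.1 CPM, against 11.3, 8.77, 25.1, 30.1 and 21.8 CPM with PBS, so that 1 library made the response of 1.99 ± 0.62 SE (adjusted p = 0.0178, edgeR). Without it the value was -0.03 (adjusted p = 0.968). IL6 called Tnip3 in none of the 9 types by edgeR, and 0 of them had an unadjusted p under 0.05. DESeq2 called it in none of the 6 for which it gave an adjusted p. Neutrophils were not tested for Tnip3 because of low counts, and had 2.32, 13.3 and 18.6 CPM with TNFa, against 0, 0, 0.693, 0 and 0 CPM with PBS.

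Cyld, the other deubiquitinase among the 6, was called in few cell types. TNFa raised it in neutrophils, with 351, 214 and 232 CPM, against 118, 106, 136, 87.0 and 142 CPM with PBS (log2 1.33 ± 0.18 SE, adjusted p = 1.72e-05, edgeR), without overlap. It was lowered by -0.68 ± 0.19 in DC.8+ (adjusted p = 0.0259) and by -0.47 ± 0.18 in monocytes (adjusted p = 0.0465), where the groups overlapped. Both calls were fragile: leaving out 1 library ended the first in 3 of 12 and the second in 9 of 14 fits. NK cell markers in DC.8+ were at 2.67, 5.41 and 4.63 with TNFa, against 2.85, 3.15, 2.51 and 5.36 with PBS (mean log2(CPM + 1)). Without 1 library each of TNFa, IL6 and PBS in which they were highest, Cyld was at -0.63 (adjusted p = 0.151). IL1b lowered Cyld in monocytes, with 62.5, 46.1 and 58.5 CPM, against 92.7, 90.4, 74.8, 88.9 and 89.7 CPM with PBS (-0.62 ± 0.19, adjusted p = 0.0152), a call lost without the lowest IL1b library (adjusted p = 0.0908). IL6 called Cyld in no type by edgeR, while DESeq2 called it in monocytes (-0.58, adjusted p = 0.0356).

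Tax1bp1, the adaptor of A20, started high and still rose with TNFa in 5 types. Monocytes had 1707, 1532 and 1299 CPM with TNFa, against 383, 377, 332, 313 and 351 CPM with PBS (log2 2.16 ± 0.14 SE, adjusted p = 4.31e-09, edgeR). The other increases were 1.62 ± 0.08 in MFpc, 1.33 ± 0.12 in neutrophils, 0.92 ± 0.18 in MFrp and 0.90 ± 0.22 in DC.8+. The DC.8+ call was lost without either of 2 libraries, and without the PBS and IL1b libraries with the most erythroid markers Tax1bp1 was at 0.77 (adjusted p = 0.0619). In pDC Tax1bp1 was lowered, with 222, 221 and 240 CPM with TNFa, against 368, 318, 344, 286 and 345 CPM with PBS (-0.55 ± 0.10, adjusted p = 0.0011). There Tnfaip3 and Tnip1 rose in the same libraries.

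IL1b raised Tax1bp1 in 5 types. DC.8+ had 1004 and 965 CPM with IL1b, against 410, 390, 261 and 272 CPM with PBS (log2 1.58 ± 0.24 SE, adjusted p = 0.0012, edgeR). Mast cells had 1341 and 1401 CPM with IL1b, against 784, 735, 902 and 889 CPM with PBS (0.75 ± 0.12, adjusted p = 0.000404). This was the single IL1b call of a member in that type in the main edgeR fit, while Tnfaip3 passed there with no filter on low counts. Monocytes rose by 1.00 ± 0.14, MFpc by 0.92 ± 0.08 and neutrophils by 0.59 ± 0.12. IL6 raised Tax1bp1 in monocytes, with 476, 760 and 753 CPM, all above the PBS libraries (0.94 ± 0.14, adjusted p = 0.000747). In DC.8+ it had 570, 678 and 390 CPM with IL6 and overlapped PBS (0.71 ± 0.22, adjusted p = 0.55), but passed in 1 fit of all screen libraries (0.71, adjusted p = 0.00287).

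Set against each other in the same fits, TNFa and IL1b differed in 19 tests of a member across 7 of the 13 cell types given both. In the others edgeR called no member. There it called 0 of 10591 genes in MC, 5 of 13616 in Tgd, 13 of 12946 in Treg, 2 of 13930 in T.8, 44 of 12397 in MZB and 59 of 13697 in B.fo. At an unadjusted p under 0.05, members numbered 1 in MC, Tgd and MZB, 2 in Treg and T.8 and 0 in B.fo. DESeq2 was not run on this contrast. Tnfaip3 was higher with TNFa than with IL1b in all of the 7 types with a called member, by 3.61 ± 0.50 SE in neutrophils, 2.72 ± 0.28 in MFpc, 2.69 ± 0.48 in monocytes, 1.92 ± 0.28 in MFrp, 1.89 ± 0.30 in DC.8+, 1.64 ± 0.26 in T.4 and 1.23 ± 0.20 in NK (log2). Tnip1 was higher with TNFa in 5 of these 7 types, by 3.29 ± 0.22 in neutrophils at the most and 1.03 ± 0.18 in T.4 at the least. Tnip3 in peritoneal macrophages ran the other way and was lower with TNFa than with IL1b (-1.32 ± 0.27, adjusted p = 0.00143, edgeR), as was Tnip2 in neutrophils (-1.92 ± 0.28, adjusted p = 7.71e-05). The members that differed were 5 of 6 in MFpc beside 16.2% of all genes, 5 of 5 in neutrophils beside 21.6%, 3 of 6 in monocytes beside 13.8%, 1 of 6 in MFrp beside 2.89%, 2 of 6 in DC.8+ beside 4.07%, 1 of 6 in NK beside 1.46% and 2 of 5 in T.4 beside 0.72%.

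Whether a response depended on the cell type was tested in 1 fit of all screen libraries. For TNFa the response of all 6 members did (adjusted p from 5.14e-47 for Tnip1 to 2.6e-08 for Tnip3, edgeR), beside 36.3% of all genes, and for IL1b all 6 did, beside 22.9%. For IL6 the response of Tnfaip3, Tnip1, Tnip2 and Tax1bp1 did, beside 6.86%, while Cyld (adjusted p = 0.556) and Tnip3 (adjusted p = 0.693) did not pass. In monocytes, the macrophage marker list of the red pulp (5 of 5 genes found) moved with the cytokine, at 6.4 to 7.16 with TNFa and 4.67 to 6.41 with IL1b, against 2.76 to 4.47 with PBS (mean log2(CPM + 1)). The monocyte markers were at 9.20 to 10.5 with TNFa and 9.85 to 10.4 with IL1b, against 9.92 to 10.8 with PBS. In peritoneal macrophages the same red pulp list was at 5.37 to 5.6 with TNFa and 4.76 to 4.86 with IL1b, against 4.03 to 4.23 with PBS. The DC.8+ libraries had their own markers at 8.61 to 9.27 with TNFa, against 9.32 to 10.2 with PBS. The part of these markers in the members' responses was not tested.

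The time course showed how long the increase lasted. In each cell type every time was set against the same 2 PBS libraries, taken at 24 h. At 2, 4 and 8 h, TNFa and time since injection therefore cannot be told apart. In peritoneal macrophages Tnfaip3 had 18.3 and 12.0 CPM 24 h after PBS, and 1631 and 1655 CPM at 2 h, 923 and 776 CPM at 4 h, 73.9 and 194 CPM at 8 h and 9.23 and 11.5 CPM at 24 h after TNFa. Against PBS the responses were 6.76 ± 0.42 SE, 5.81 ± 0.40, 3.14 ± 0.37 and -0.55 ± 0.39 (log2) in that order of times. The first 3 passed and the last did not (adjusted p = 0.478, edgeR). The 24 h libraries lay below both PBS libraries and far below those at 2 h (-7.31 ± 0.43, adjusted p = 9.41e-08).

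In monocytes Tnfaip3 had 75.0 and 91.2 CPM 24 h after PBS, and 1421 and 1703 CPM at 2 h, 1160 and 924 CPM at 4 h, 71.4 and 435 CPM at 8 h and 35.7 and 11.4 CPM at 24 h after TNFa. The responses were 4.23 ± 0.69 SE, 3.65 ± 0.68, 1.61 ± 0.63 and -1.81 ± 0.65 (log2), and those at 2 and 4 h passed. Of the 8 h libraries, 1 lay just below PBS and the other far above it. At 24 h both lay below PBS (adjusted p = 0.161, edgeR), and with no filter on low counts this passed (-1.76, adjusted p = 7.45e-11), as did Tnfaip3 at 8 h (1.69, adjusted p = 2.67e-11).

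Tnip1 was called at 2 and 4 h and no longer at 8 h in both cell types, where 1 of 2 libraries was still above PBS. In peritoneal macrophages it had 16.4 and 14.3 CPM with PBS, and 448 and 466 CPM at 2 h, 239 and 203 CPM at 4 h, 14.2 and 31.6 CPM at 8 h and 14.5 and 16.5 CPM at 24 h. The responses were 4.89 ± 0.31 SE, 3.84 ± 0.29, 0.56 ± 0.29 and 0.01 ± 0.30, and in monocytes 3.59 ± 0.41, 3.27 ± 0.40, 0.59 ± 0.38 and 0.05 ± 0.38 (log2), of which those at 2 and 4 h passed. In monocytes Tnip1 had 46.8 and 145 CPM at 8 h, against 62.7 and 65.3 CPM with PBS. Without the lower library at 8 h, Tnip1 passed in macrophages (1.01, adjusted p = 0.00372) and in monocytes (1.2, adjusted p = 0.00431). In peritoneal macrophages Tnfaip3 was thus still called at 8 h and Tnip1 was not, a contrast between genes that was not itself tested.

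Tnip3 kept its increase longer in macrophages than in monocytes. In monocytes it passed at 2 h (3.47 ± 0.53 SE) and was at 0.64 ± 0.52 by 4 h, whereas in peritoneal macrophages it passed at 2 h (5.25 ± 0.51), 4 h (4.19 ± 0.52) and 8 h (3.64 ± 0.52). The difference between the responses, MFpc minus monocytes, was 3.45 ± 0.87 at 4 h (adjusted p = 0.0201) and 4.58 ± 0.88 at 8 h (adjusted p = 0.00311, edgeR, log2). At 24 h neither macrophage library had a read of Tnip3, against 0.429 and 0.811 CPM with PBS, from 9 reads in all. The main edgeR test was not passed. It was passed in edgeR with no filter on low counts (adjusted p = 0.0326) and with a replicate block (adjusted p = 0.0344). The PBS mean was 1.41-fold above a floor of 3 counts in a 24 h library of average size.

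Tax1bp1 rose by 2.67 ± 0.25 SE at 2 h and 1.11 ± 0.24 at 4 h in monocytes, and was at -0.09 ± 0.24 at 8 h (log2); the 4 h call was lost without 1 PBS library (adjusted p = 0.0544). In peritoneal macrophages it was still raised at 8 h (1.89 ± 0.17, 1.39 ± 0.17 and 1.03 ± 0.16 at 2, 4 and 8 h), and the difference between the cell types at 8 h passed (1.05 ± 0.29, adjusted p = 0.0312, edgeR). Tnip2 rose at 2 and 4 h in monocytes (0.96 ± 0.29 and 0.92 ± 0.29) and at 2, 4 and 8 h in peritoneal macrophages (2.45 ± 0.22, 1.29 ± 0.21 and 1.32 ± 0.21). At 2 h its response was larger in macrophages by 1.44 ± 0.38 (adjusted p = 0.0228). The Tnip2 monocyte calls were lost when either PBS library was left out.

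Cyld ran against the others in the time course. In monocytes it had 121 and 119 CPM with PBS, and 79.5 and 63.0 CPM at 2 h, 85.9 and 84.6 CPM at 4 h, 65.6 and 72.7 CPM at 8 h and 94.4 and 80.2 CPM at 24 h. It was lowered at 2 h (-0.75 ± 0.20 SE, adjusted p = 0.0108) and 8 h (-0.79 ± 0.20, adjusted p = 0.0136, edgeR), and every TNFa library was below both PBS libraries. In peritoneal macrophages it was lowered at 4 h (-0.68 ± 0.21) and 8 h (-1.16 ± 0.22, adjusted p = 0.00171), with 26.6 and 17.6 CPM at 8 h, against 48.0 and 51.5 CPM with PBS. Leaving out either PBS library ended both monocyte calls and the macrophage call at 4 h. At 2 h the response differed between the cell types by 0.93 ± 0.28 (adjusted p = 0.0445).

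**Figure D4:**
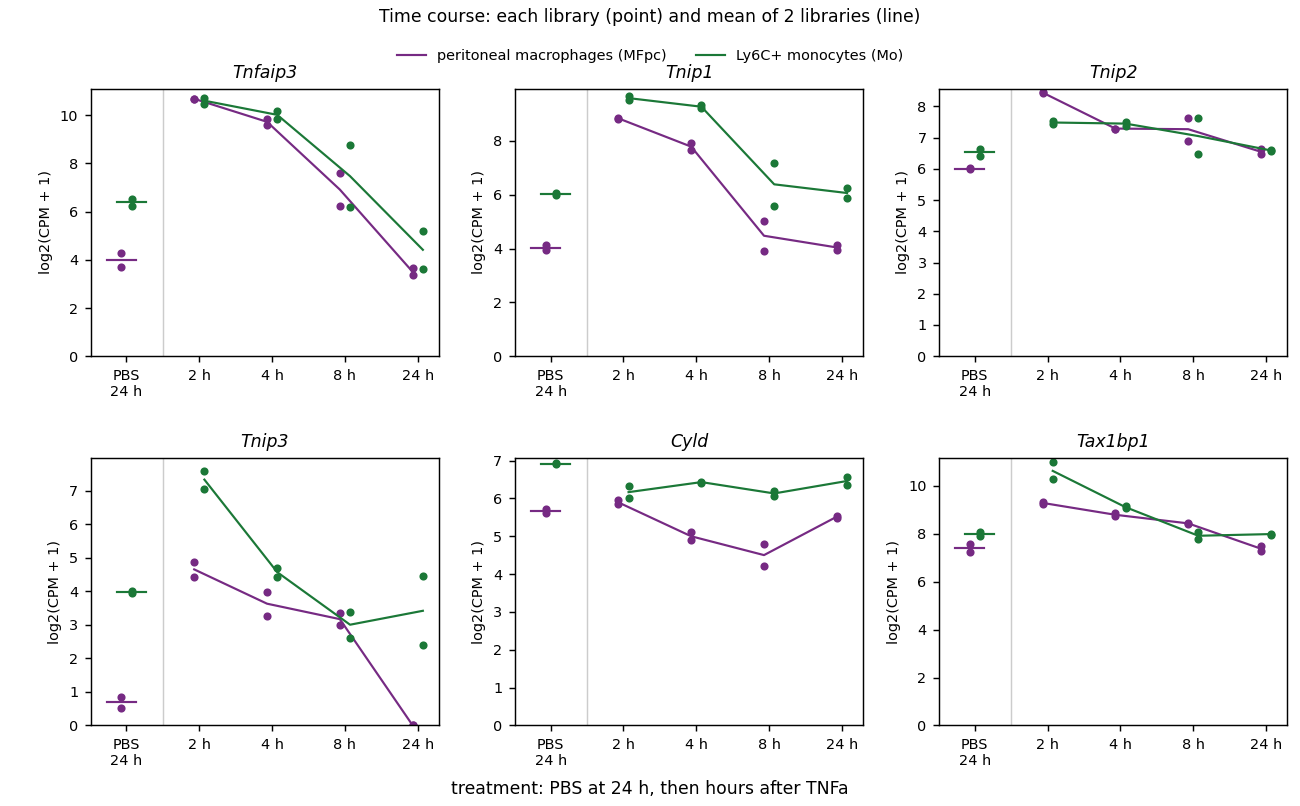
Level of each gene as log2(CPM + 1) (y axis) 24 h after PBS (left of the grey line) and 2, 4, 8 and 24 h after TNFa (x axis, not to scale) in peritoneal macrophages (purple) and Ly6C+ monocytes (green); points are libraries and lines join means of 2 libraries. Tnfaip3 and Tnip1 peak at 2 h and are near or below PBS at 24 h, and Cyld is at or below PBS except in macrophages at 2 h.

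In monocytes all 6 members were called at 2 h beside 40.3% of all genes, 4 at 4 h beside 32.5% and 1 at 8 h beside 22%. None was called at 24 h by edgeR or DESeq2, with 2 at an unadjusted p under 0.05, beside 4.46%. In peritoneal macrophages 5 were called at 2 h beside 36.2%, 6 at 4 h beside 35.6% and 5 at 8 h beside 28.4%. At 24 h none was by either tool, with 2 at an unadjusted p under 0.05, beside 6.67%. Between 24 h and 2 h, 5 members fell in monocytes beside 36.4% of all genes called, and 5 in macrophages beside 34.4%, all but Cyld in both. The responses differed between the cell types for 2 members at 2 h beside 9.64%, 1 at 4 h beside 7.69% and 2 at 8 h beside 9.03%. At 24 h edgeR called 0 beside 2.89%, 1 having an unadjusted p under 0.05, and this contrast was not run in DESeq2.

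LPS, the bacterial ligand of TLR4, raised 4 of the 6 members in monocytes, beside 18.6% of all genes. Tnfaip3 had 139, 428 and 781 CPM with LPS, against 62.1, 52.3 and 94.5 CPM in controls (log2 2.69 ± 0.54 SE, adjusted p = 0.00735, edgeR), and Tnip1 had 269, 506 and 521 CPM, against 61.6, 67.7 and 67.6 CPM (2.72 ± 0.30, adjusted p = 0.000385). Tnip3 had 126, 206 and 158 CPM with LPS, against 14.8, 16.9 and 12.9 CPM in controls (3.47 ± 0.29, adjusted p = 0.000151). Tax1bp1 had 1272, 1159 and 1332 CPM with LPS, against 264, 379 and 274 CPM in controls (2.04 ± 0.24, adjusted p = 0.000493). None of these 4 overlapped, which was not counted over all genes, and the calls held when any library was left out. Tnip2 (0.41 ± 0.27, adjusted p = 0.331) and Cyld (-0.27 ± 0.26, adjusted p = 0.532) overlapped the controls.

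Each response set against its own controls, LPS exceeded IL6 for Tnip3 by 4.34 ± 0.92 SE, Tnfaip3 by 4.09 ± 0.76, Tnip1 by 3.82 ± 0.42 and Tax1bp1 by 1.15 ± 0.24 (log2), 4 members beside 9.92% of all genes. It exceeded IL1b for Tnip1 by 1.49 ± 0.40 and Tax1bp1 by 1.08 ± 0.24, 2 members beside 5.11%. Against TNFa edgeR called no member, with 1 at an unadjusted p under 0.05, beside 6.64%, and DESeq2 was not run on these contrasts. The differences from TNFa were -1.84 ± 0.71 for Tnfaip3, -0.57 ± 0.40 for Tnip1, 0.06 ± 0.85 for Tnip3 and -0.07 ± 0.23 for Tax1bp1, and their SEs do not show that LPS and TNFa act alike. The LPS libraries have controls of their own, and experiment and treatment cannot be told apart in these differences.

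**Figure D5:**
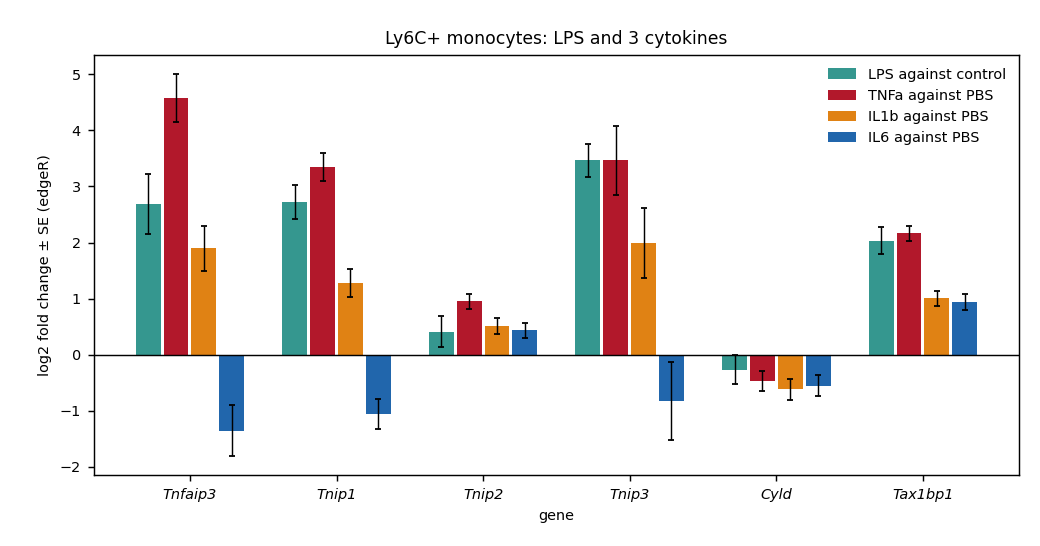
Log2 fold change with SE (y axis, edgeR) of each gene (x axis) in Ly6C+ monocytes for LPS against its controls and for TNFa, IL1b and IL6 against PBS. LPS and TNFa bars are above 2.0 for Tnfaip3, Tnip1, Tnip3 and Tax1bp1, and IL6 bars are below 0 for Tnfaip3, Tnip1, Tnip3 and Cyld.

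Other genes of the pathway were read from lists of known components. Of the NF-kB induced feedback genes, known targets such as the IkB proteins, 135 of 203 tests were raised and 2 lowered with TNFa, with a median log2 response of 1.22. With IL1b it was 80 raised and 4 lowered of 189, and with IL6 7 raised and 7 lowered of 203. Nfkbia (IkBa) was raised by TNFa in 12 and by IL1b in 11 types, and Bcl3, an NF-kB cofactor, in all 14 and all 13 types tested, B cells and mast cells included. Of all gene tests, 8.26% were raised and 7.95% lowered with TNFa, 5.76% and 4.26% with IL1b and 1.46% and 0.95% with IL6.

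Of the ubiquitin ligases and conjugating enzymes at the receptors, 55 of 161 tests were raised and 12 lowered with TNFa, 32 and 3 of 149 with IL1b and 3 and 4 of 161 with IL6. The raised shares were 34.2% with TNFa and 21.5% with IL1b, beside 8.26% and 5.76% of all gene tests. The share lowered with TNFa, 7.45%, and that raised with IL6, 1.86%, were near the 7.95% and 1.46% of all gene tests. Birc3 (cIAP2), a ligase that builds the chains A20 acts on, was raised by TNFa in all 14 types and by IL1b in 10, with responses to TNFa of 0.53 to 2.94. Ube2d3, a ubiquitin-conjugating enzyme, was raised in 8 types by TNFa, 7 by IL1b and 3 by IL6. Traf5, an adaptor of TNF receptor signalling, was lowered by TNFa in 7 types and raised in 1.

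Among partners and substrates of A20, 31 of 140 tests were raised and 5 lowered with TNFa, 16 and 4 of 130 with IL1b and 1 and 3 of 140 with IL6. With TNFa this was 22.1% raised and 3.57% lowered, beside 8.26% and 7.95% of all gene tests. Tank was raised by TNFa in 10 types, and N4bp1 and Optn in 6 each. Itch, a ligase that works in the A20 complex, was lowered by TNFa in 4 types (MFpc, MFrp, monocytes and DC.8+) and raised in none of 14. Other deubiquitinases gave 18 raised and 7 lowered of 192 tests with TNFa, 12 and 2 of 178 with IL1b and 0 and 1 of 192 with IL6 by edgeR. Their raised shares, 9.38% with TNFa and 6.74% with IL1b, were near the 8.26% and 5.76% of all gene tests. The linear ubiquitin ligase complex and its controls gave 3 raised and 7 lowered of 84 with TNFa, 5 and 7 of 78 with IL1b and 0 and 0 of 84 with IL6 by edgeR. With TNFa 3.57% were raised and 8.33% lowered, beside 8.26% and 7.95% of all gene tests. With IL1b it was 6.41% and 8.97%, beside 5.76% and 4.26%. Within this list Rnf31, the catalytic subunit, was raised by TNFa in 3 types, and all 7 lowered tests with TNFa were of Otulinl, a relative of the linear deubiquitinase Otulin. At an unadjusted p under 0.05, IL6 had 13 tests of the other deubiquitinases and 6 of the linear ubiquitin list, and DESeq2 was not run on the lists.

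The genes whose pattern was most like Tnfaip3 were named by Pearson's r as a description, over points that share libraries and PBS controls. By mean log2 CPM over the 55 screen groups, among 11000 genes, they included Tnip1 (r = 0.900), Relb (0.775), Nfkbib (0.775) and Nfkbia (0.769). By log2 fold change over 41 cytokine comparisons, among 7970 genes, they were Nfkbib (0.928), Tnip1 (0.927), Nfkbie (0.925), Relb (0.924) and Icam1 (0.918), and for Tnip1 they were Nfkbib (0.938), Tnfaip3 (0.927), Icam1 (0.919), Irak2 (0.915) and Hivep1 (0.904). The other 4 members had other neighbours in level, with Nup98 (0.808) and Ywhag (0.751) for Tnip2, Bcl2a1d (0.819) and Ube2f (0.796) for Tnip3, Limk2 (0.886) and Ltb (0.841) for Cyld and Golph3 (0.889) and Hnrnph2 (0.879) for Tax1bp1.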

How the data were processed

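RNA sequencing of sorted mouse immune cells gave 209 libraries. The deposited values are whole-number counts per gene, which the authors made with STAR 2.7.3a and featureCounts on mm10, per the submitters' processing notes. The strand setting, annotation and filters were not given in the sources used here. Of the 55011 gene symbols, 52936 were found in GENCODE vM21, which supplied the gene spans, and promoter windows came from RefSeq (GRCm38.p6). Groups were taken from the sample labels. Of 174 titles that name the spleen, 158 carry a peritoneal tissue label, and the cell types here follow the titles. The 251 replicate pairs held no identical libraries, and their counts differed by 2.18 to 42 times the Poisson expectation (chi-square per degree of freedom).

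Tests on these counts used edgeR 4.0.16 (with limma 3.58.1 in R 4.3.3), TMM scaling, the default low-count filter, and 1 quasi-likelihood fit per cell type or experiment. P-values were adjusted by Benjamini-Hochberg over all genes of a comparison, with a threshold of 0.05. Each SE is the absolute log2 fold change over the square root of F. Cell-type dependence came from 1 fit of all screen libraries, with the dispersion trend set from 1 gene in 8. CPM values of the screen use 1 TMM scaling of its libraries, while the time course and the LPS experiment have their own, so levels are not compared across them. That scaling differed from the per-type fits by at most 0.171 (log2, in neutrophils). Likeness used log2 CPM with a prior count of 2 for genes averaging at least 5 CPM. Scripts were tested on simulated data.

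The genes named are the 6 members, the genes of the pathway lists called in the most cell types, and those most like each member, of which 1 is not reported here. The members and lists were chosen with earlier results of these data known. Alternatives were DESeq2 1.42.0, its size factors, no low-count filter, 1 fit of all libraries, a replicate block and leaving out each library. Leaving out libraries with markers of another cell type was chosen after seeing the data.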

Additional observations from a re-analysis of the deposited data

Results flagged for a closer look

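In 7 of 83 combinations of a member and a PBS group (4 or 5 libraries), 1 library stood apart from the others of its group by Dixon's test, which chance does in about 1 in 20 groups. These were Tnip1 at 128 CPM in Tgd library 4, Tnip2 at 82.2 CPM in MFpc library 3 and at 178 CPM in neutrophil library 5, and Cyld at 74.8 CPM in monocyte library 3. For Tnip3 the 3 libraries were neutrophil library 3 at 0.693 CPM, pDC library 3 at 0.858 CPM and T.4 library 3 at 0.438 CPM; the other libraries of the neutrophil and T.4 groups had no read of it, and those of pDC had at most 0.207 CPM.

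The response to TNFa differed between cell types for all 6 members in 1 fit of the screen, with adjusted p-values (edgeR) of 5.19e-31 for Tnfaip3, 5.14e-47 for Tnip1, 3.2e-23 for Tnip2, 2.6e-08 for Tnip3, 1.18e-08 for Cyld and 2.42e-34 for Tax1bp1. For IL1b they were 6.08e-10 for Tnfaip3, 6.03e-28 for Tnip1, 1.62e-07 for Tnip2, 1.76e-05 for Tnip3, 0.00909 for Cyld and 1.87e-17 for Tax1bp1. For IL6 they were 0.001 for Tnfaip3, 0.00184 for Tnip1, 1.46e-07 for Tnip2 and 8.97e-08 for Tax1bp1.

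In the time course, the response to TNFa in peritoneal macrophages minus that in monocytes passed the test in 5 cases (log2 difference). These were Cyld at 2 h (0.929), Tnip2 at 2 h (1.44), Tnip3 at 4 h (3.45) and 8 h (4.58), and Tax1bp1 at 8 h (1.05).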

How the results depend on the processing

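Across the screen, the counts of member tests called were 37 raised and 4 lowered with TNFa, 27 and 1 with IL1b, and 5 and 4 with IL6. Counts that moved by over 1.5 times were those lowered by IL6, which were 7 with no filter on low counts and 7 with DESeq2, and those lowered by IL1b, which were 3 with DESeq2; the cause was not tested. With a replicate block, 2 were lowered by TNFa, 0 by IL1b and 2 by IL6, and 3 were raised by IL6. The main fits did not treat same-numbered libraries as pairs. Their deviations from the group means had a median r from -0.145 to 0.0348 over the fits. Single pairs were over 0.1, with 4 of 15 in T.8 and 3 of 18 in MFrp. Deviations within such small groups must sum to 0, so these values cannot decide whether same-numbered libraries belong together. Leaving out 1 replicate number of a treatment at a time gave 34 to 38 raised and 2 to 4 lowered with TNFa, 23 to 29 and 0 to 2 with IL1b, and 4 to 5 and 2 to 6 with IL6. In the time course it gave 6 to 12 raised and 0 to 3 lowered in monocytes (9 and 2 with all libraries) and 14 to 16 and 1 to 2 in peritoneal macrophages (14 and 2), and with LPS 4 raised and 0 lowered each time.

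Of single calls, those kept in every fit that left out 1 library were 35 of 41 with TNFa, 21 of 28 with IL1b, 5 of 9 with IL6, 6 of 11 in the monocyte and 15 of 16 in the macrophage time course, and 4 of 4 with LPS. The direction turned in 1 case, Tnip3 in monocytes given IL1b, whose log2 value ran from -0.0318 without IL1b replicate 1 to 2.48 without IL1b replicate 2. Without libraries that carried markers of another cell type, TNFa raised 36 to 37 and lowered 3 to 4, IL1b raised 26 to 28, and IL6 raised 4 to 5. Groups of 2 or 3 libraries limit what the tests can show.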
